A study of Mus musculus with 4 samples.

Results

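Neutrophil-like monocytes were the cells that carried this name in the authors' deposited annotation of a joint table of 2 mouse tumours. They made up 890 of the 13021 cells of the tumour of LLC, the Lewis lung carcinoma line, in a table of 19891 cells, and another 31 cells of the same name lay among the 6870 cells of the tumour of B16, a melanoma line. Both were subcutaneous tumours, each a 10x Genomics droplet library of 3 pooled mice. The LLC library came from mice of the strain F11r fl/fl LysM-Cre-, which carry floxed F11r and no LysM-driven Cre, and the B16 library from C57BL/6J mice. Tumour line, strain and library therefore differed together, and how the cells were isolated is not described in the sources used here. Within LLC the cells were set beside Neutrophil-1 (813 cells), Neutrophil-2 (1142 cells), Monocytes (998 cells) and the 4 clusters of immature tumour-associated macrophages, Imm TAM-1 to Imm TAM-4 (1522, 1148, 426 and 2675 cells).

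Neutrophils are short-lived granulocytes that fill their granules with antimicrobial proteins in the marrow and, once mature, carry S100a8, S100a9, the receptors Csf3r and Cxcr2 and little RNA. Monocytes enter tumours as Ccr2-bearing, Ly6c2-bearing cells and turn into macrophages that express Csf1r, complement C1q and MHC class II. The name neutrophil-like monocyte is used in mice for monocytes that carry neutrophil granule transcripts and are thought to arise from granulocyte-monocyte progenitors. A droplet that holds a neutrophil together with a monocyte or macrophage would also carry both sets of transcripts.

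All values below are counts of unique molecular identifiers (UMIs) summed over the cells of a cluster and scaled to CPM, counts per 1000000 UMIs of that cluster. Each tumour had 1 library, so differences have no replicate check, no test was made, and 95% intervals cover counting error only. Genes whose 2 sides together held 20 or more UMIs counted as measured, and a ratio of 1.5-fold in either direction was the call. Because the clusters were made from these same genes, the differences describe the clusters and are not independent of how they were drawn. The LLC library held 93977259 UMIs and the B16 library 72355330, with medians of 6174 and 8315 UMIs per cell. Of the 13021 LLC barcodes, 29 also occurred in the B16 library, 2 of them neutrophil-like monocytes, and 3 barcodes of neutrophil-like monocytes occurred in a surface-protein library of LLC that was not used here.

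Neutrophil-like monocytes carried the neutrophil genes G0s2, S100a9 and Hdc at levels below those of neutrophils and far above those of monocytes. S100a9, a calcium-binding protein that fills the neutrophil cytosol (chr3:90692632-90695721, mm10, minus strand), stood at 15455 CPM in neutrophil-like monocytes, against 102539 CPM in Neutrophil-1, 58593 in Neutrophil-2, 401 in Monocytes and 479 in the pooled Imm TAM clusters. G0s2, an inhibitor of fat breakdown (chr1:193272161-193273217, minus strand), stood at 1568 CPM in neutrophil-like monocytes, against 5952, 4934, 31.0 and 45.5 CPM in the same 4 groups. Hdc, the enzyme that makes histamine (chr2:126593667-126619299, minus strand), stood at 334 CPM in neutrophil-like monocytes, against 1755, 934, 15.5 and 14.9 CPM. In all 3 genes the order was the neutrophil clusters, then neutrophil-like monocytes, then the rest. Cells that should lack these genes were not at 0: naive T cells showed 1029 CPM of S100a9 and B cells 4639.5 CPM, with maxima of 174 and 579 UMIs in a single cell. Hdc also marks basophils and mast cells. Of their other genes, Mcpt8 had 0 UMIs and Cpa3 1 UMI in neutrophil-like monocytes. Kit, the stem cell factor receptor of mast cells, had 13 UMIs (1.71 CPM, against 4.65 in neutrophils, 0 in Monocytes and 0.331 in Imm TAM), and Il6 had 8 UMIs. Of 5 measured genes of the basophil and mast cell list, Hdc among them, 2 were higher and 3 lower than in Imm TAM.

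**Figure D1:**
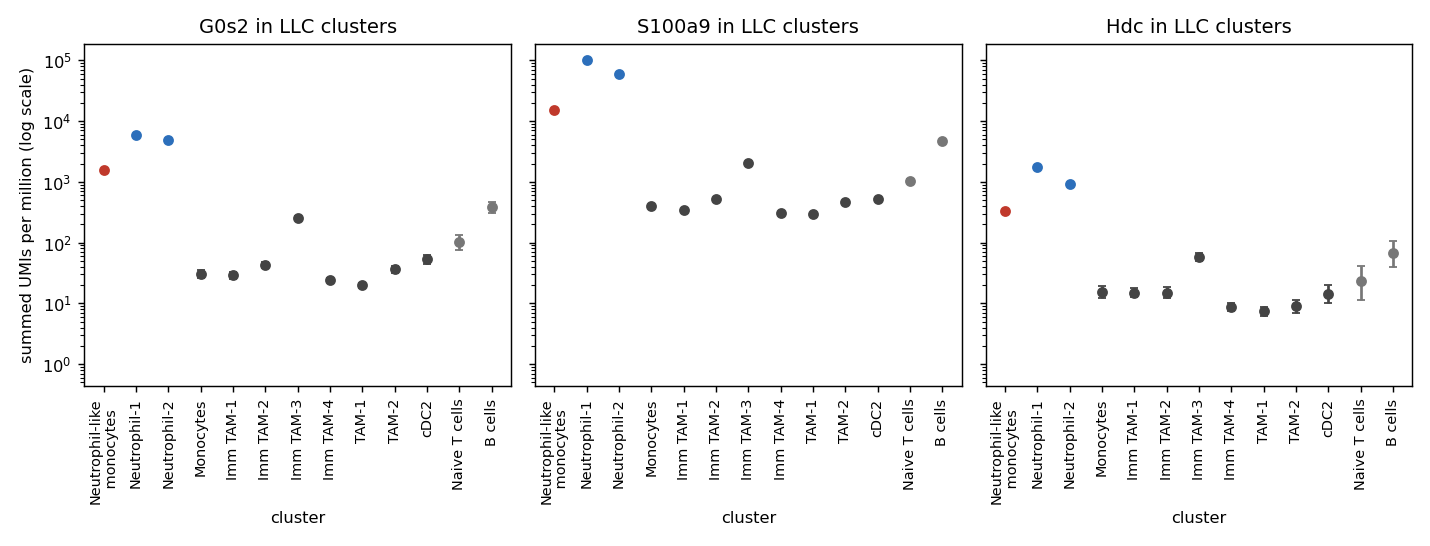
Levels of G0s2, S100a9 and Hdc in LLC clusters, in CPM of summed UMIs on a log axis, with exact 95% Poisson intervals that cover counting error only. Neutrophil-like monocytes (red) lie between the neutrophil clusters (blue) and every other cluster drawn.

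Counted per cell, the same genes were at least as abundant in neutrophil-like monocytes as in neutrophils. Neutrophil-like monocytes held a mean of 132 S100a9 UMIs per cell, against 132 in neutrophils, 2.34 in Monocytes and 3.26 in Imm TAM. G0s2 averaged 13.4 UMIs per neutrophil-like monocyte and 9.34 per neutrophil, and Hdc 2.86 and 2.18. The other neutrophil genes shown were close on both sides. S100a8, the binding partner of S100a9, averaged 78.1 UMIs per neutrophil-like monocyte and 76.3 per neutrophil. Csf3r, the receptor for G-CSF, averaged 2.23 and 1.97 UMIs in the same order, and Cxcr2, the receptor for neutrophil-attracting chemokines, 2.03 and 1.95. Retnlg was lower, at 14.7 UMIs per neutrophil-like monocyte and 18.9 per neutrophil. Ccr2 was close to monocytes and immature macrophages. Ccr2, the receptor that brings monocytes out of the marrow, averaged 6.23 UMIs per neutrophil-like monocyte, against 5.45 in Monocytes, 6.68 in Imm TAM and 0.0783 in neutrophils. Ly6c2, a surface antigen of classical monocytes, was nearer Imm TAM, with 1.45 UMIs per neutrophil-like monocyte, against 5.41 in Monocytes and 1.62 in Imm TAM.

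Total depth was above that of the neutrophil, monocyte and Imm TAM clusters, but other macrophage clusters of LLC were deeper. Median UMIs per cell were 11127 in TAM-1, 15103 in TAM-2 and 16158 in Prolif TAM. Neutrophil-like monocytes had a median of 7754 UMIs and 2338 genes per cell, above Neutrophil-1 (1406 UMIs), Neutrophil-2 (1557), Monocytes (5522) and each Imm TAM cluster (4964 to 7087). The share of cells with at least 1 Hdc UMI was 73.6% in neutrophil-like monocytes, 78.8% in Neutrophil-1, 56.2% in Neutrophil-2, 7.01% in Monocytes and 2.16% in naive T cells (median 2455 UMIs). With every cell thinned to 1000 UMIs these shares were 27.2%, 72.6%, 44.5%, 1.91% and 1.65%, and thinning left out 0, 141, 150, 2 and 3 shallower cells. G0s2 was found in 76.6% of neutrophil-like monocytes (49.3% after thinning), against 10.1% of Monocytes (2.71%) and 4.32% of naive T cells (3.85%). S100a9 was found in 99.0% of neutrophil-like monocytes (94.0% after thinning), against 59.1% of Monocytes (17.4%). In Monocytes the S100a9 share after thinning was below that of naive T cells (24.2%). Thinning kept a smaller part of the UMIs of a typical Monocyte than of a naive T cell. The part of free RNA in either share was not tested.

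Relative to the pooled neutrophils, neutrophil-like monocytes were higher in most genes of macrophages, of MHC class II and of non-classical monocytes. They were mixed in those of classical monocytes and lower in every gene of the neutrophil core. Ranked by the lower bound of the interval, the genes highest over neutrophils were Pid1, an adaptor protein of insulin signalling (19.6-fold, 95% interval 16.1 to 24.1), Arg1, the arginine-degrading enzyme of suppressive macrophages (16.3-fold, 95% interval 14.6 to 18.4), and Ccr2 (16.4-fold, 95% interval 13.9 to 19.4). Next by that bound came Ms4a6c, Pou2f2, Ahnak, Atp2b4, Irf8, the transcription factor of the monocyte lineage, and Fn1, fibronectin, with folds of 12.5 to 23.3. Over all 9808 measured genes, 5863 (59.8%) were higher and 1309 (13.3%) lower. Of the macrophage list, 18 of 20 measured genes were higher (median log2 ratio 3.16, against 0.98 over all measured genes), of the list for MHC class II 9 of 10, and of the non-classical monocyte list 10 of 13. Of the classical monocyte list 8 of 15 were higher and 5 lower, with a median log2 ratio of 1.77. All 22 genes of the neutrophil core were lower, with a median log2 ratio of -1.95. When the profiles were scaled by the median gene in place of the total, the median of all genes moved by 0.96 on the log2 scale and the calls became 3645 higher and 3426 lower. Against Neutrophil-1 alone 61.9% of measured genes were higher and 12.8% lower, and against Neutrophil-2 alone 61% and 13.3%. The median of the macrophage list stayed above 0 and that of the neutrophil core below 0 under both scalings.

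Among neutrophil genes the shortfall was uneven. Retnlg, a resistin-like protein of neutrophils, stood at 1721 CPM in neutrophil-like monocytes, against 10722 in neutrophils (6.23-fold, 95% interval 6.11 to 6.36, lower). Ly6g, the surface protein used to define mouse neutrophils, stood at 24.96 CPM, against 178 (7.14-fold, 95% interval 6.06 to 8.45, lower), and 101 of the 890 cells held a Ly6g UMI. Prok2, BC100530, Stfa2, Nlrp12 and Wfdc21 were lower by 5.22-fold to 6.59-fold. The proteins of secondary granules, made by immature neutrophils, had few UMIs. Camp, the cathelicidin precursor, had 1 UMI in neutrophil-like monocytes and 496 in neutrophils, but 438 of those neutrophil UMIs came from 1 cell of Neutrophil-1. Ngp had 26 UMIs in neutrophil-like monocytes and 630 in neutrophils, and Ltf, lactoferrin, 11 and 183. In Neutrophil-1 the 5 highest cells held 91.5% of the Ngp UMIs and 97.6% of the Ltf UMIs, so these folds rest on a few cells of the other side. Prtn3, a primary granule protease that neutrophil-like monocytes of the marrow are known to carry, stood at 15.6 CPM, against 12.8 in neutrophils, 92.9 in Monocytes and 24.2 in Imm TAM, and so was below the Monocytes. Elane, Mpo and Ctsg were not analysed here.

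Relative to Monocytes, neutrophil-like monocytes were higher in neutrophil genes, in inflammatory chemokines and in hypoxia genes, and lower in the genes of both kinds of blood monocyte. Ranked by the lower bound, the genes highest over Monocytes were Stfa2l1, a stefin (87.8-fold, 95% interval 58.9 to 137), Retnlg (53.5-fold, 95% interval 46.3 to 62.1) and G0s2 (50.6-fold, 95% interval 43.7 to 59.0). Cxcl3, a chemokine that draws neutrophils, stood at 2497 CPM, against 51.3 (48.7-fold, 95% interval 43.4 to 54.8). Prok2, Slc2a3, a glucose transporter, S100a9, BC100530, Hcar2, the niacin receptor, and Ankrd33b followed with folds of 38.5 to 72.7. Of 10155 measured genes, 1751 (17.2%) were higher and 1177 (11.6%) lower. The neutrophil core had 20 of 22 genes higher (median log2 ratio 3.23, against -0.02 over all measured genes), hypoxia and glycolysis 20 of 20, inflammatory ligands 20 of 25 and macrophage genes 15 of 20. Cd177, a neutrophil surface protein that the Monocytes carried too, was the core gene that was lower, at 16.4 CPM in neutrophil-like monocytes and 60.04 in Monocytes.

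Hilpda and Bnip3, examples of the hypoxia list, were highest in Neutrophil-2 among the groups given. Hilpda, a lipid-droplet protein induced by low oxygen, stood at 910.2 CPM in neutrophil-like monocytes, against 365 in Neutrophil-1, 3859.8 in Neutrophil-2, 59.9 in Monocytes and 528 in Imm TAM. Bnip3, which drives the removal of mitochondria, stood at 385 CPM, against 213, 1334, 53.7 and 318. On the lower side of the same comparison, Ly6c2, the surface antigen of classical monocytes, stood at 169 CPM, against 928 in Monocytes (5.48-fold, 95% interval 5.16 to 5.83, lower). Chil3, a chitinase-like protein of monocytes, stood at 469.5 CPM, against 2034 (4.33-fold, 95% interval 4.17 to 4.50, lower), and Plac8 at 1511, against 5392. Tppp3, Ramp1, Stxbp6, Pdlim1, Tmem176b, Mgst1 and Prtn3 were lower by 3.37-fold to 5.94-fold. Of the classical monocyte list 10 of 15 genes were lower, and of the non-classical list 10 of 13. Ace, for example, stood at 49.9 CPM, against 148, and Nr4a1, the factor that non-classical monocytes require, at 99.97, against 226.

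Relative to the pooled Imm TAM clusters the difference was narrower, with 1009 of 11154 measured genes (9.05%) higher and 804 (7.21%) lower. The genes highest were again those of neutrophils: Stfa2l1, Prok2, BC100530, G0s2, S100a9, Retnlg, Asprv1, Cxcr2, S100a8 and Il1f9, an interleukin of the IL-36 family, with folds of 26.6 to 49.7. Of the neutrophil core, 21 of 22 genes were higher (median log2 ratio 3.47, against -0.11 over all measured genes). Macrophage genes differed little, with 18 of 20 within 1.5-fold and 2 lower. Antigen presentation was lower, with 7 of 10 genes called. H2-Aa, a chain of MHC class II, stood at 426 CPM, against 984 in Imm TAM (2.31-fold, 95% interval 2.23 to 2.40, lower), and Cd74, the invariant chain, at 1557, against 3080.1. Interferon response genes were lower than in Imm TAM in 14 of 21 and higher in 2. Against Monocytes 8 of 20 were higher and 5 lower, where 17.2% and 11.6% of all measured genes were. Cxcl10, a chemokine induced by interferon, stood at 23.9 CPM, against 237 in Imm TAM (9.89-fold, 95% interval 8.54 to 11.5, lower). Much of the Imm TAM level of Cxcl10 lay in Imm TAM-3, at 2961 CPM, while Imm TAM-4 stood at 21.0. Ppbp, H2-Eb1, H2-Ab1, Mmp12, Ccl24, Tnfrsf9 and Mt2 were lower by 2.22-fold to 2.76-fold. Against single clusters, the share of measured genes that was higher was 17.4% for Imm TAM-1, 22.7% for Imm TAM-2, 16% for Imm TAM-3 and 11.5% for Imm TAM-4, and the share that was lower was 4.4%, 9.48%, 10% and 16.8%. The non-classical monocyte list was higher here in 11 of 13 genes. Scaling by the median gene gave 1266 higher and 577 lower. Without the cells of the highest doublet scores, described further on, the lower count became 1621.

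**Figure D2:**
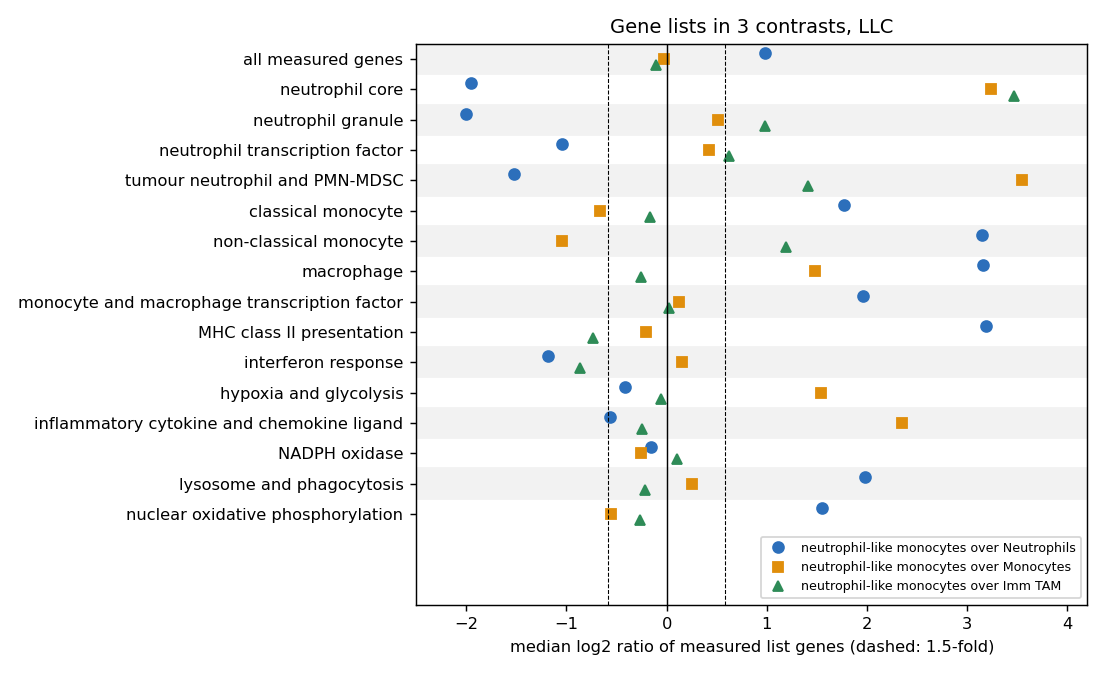
Median log2 ratio of the measured genes of 15 gene lists and of all measured genes, for neutrophil-like monocytes over Neutrophils (circles), Monocytes (squares) and pooled Imm TAM (triangles) in LLC. Dashed lines mark 1.5-fold. Neutrophil lists lie below 0 against Neutrophils and above 0 against the other groups, and the macrophage list lies within 1.5-fold against Imm TAM.

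Markers of T, NK, B, dendritic and red cells were at low levels in neutrophil-like monocytes. The 12 genes of T and NK cells summed to 56.0 CPM, against 19.8 in neutrophils, 9.12 in Monocytes and 73.3 in Imm TAM. Of the measured genes 5 of 5 were higher than in Monocytes. Although the sum was below that of Imm TAM, 6 of 9 measured genes were higher than there and 1 lower, with a median log2 ratio of 1.42. Cd3d, a chain of the T cell receptor complex, stood at 3.68 CPM in neutrophil-like monocytes, against 1141 in naive T cells. Gzma, a granzyme of killer cells, stood at 4.73 CPM, against 2059 in NK cells. The 7 genes of B and plasma cells summed to 6.57 CPM, against 8.26 in Monocytes, and the 11 of dendritic cells in the table to 32.7, against 50.4. The haemoglobin genes were lower than in Imm TAM in 4 of 4, with the red cell list at 8.67 CPM in neutrophil-like monocytes and 165 in Imm TAM, and Alas2, an enzyme of red cell precursors, had 0 UMIs. The platelet list summed to 1289 CPM in neutrophil-like monocytes, against 139.6 in neutrophils, 74.5 in Monocytes and 2049 in Imm TAM. Most of it was Pf4, a chemokine that macrophages also make, at 1191 CPM, and Ppbp stood at 96.7. Of 3 measured platelet genes 2 were higher than in neutrophils, 2 higher than in Monocytes, and 1 higher and 1 lower than in Imm TAM. The tumour and epithelial list summed to 43.6 CPM in neutrophil-like monocytes, against 41.9 in neutrophils, 23.2 in Monocytes, where 2 of 3 measured genes were lower than in neutrophil-like monocytes, and 42.9 in Imm TAM. The part of these cells in the comparisons was not tested. Of the immediate early and heat shock genes that tissue dissociation induces, 10 of 16 were lower than in neutrophils, 9 higher than in Monocytes and 9 higher than in Imm TAM. For these and the other list counts here, 59.8% of all measured genes were higher and 13.3% lower than in neutrophils. Against Monocytes 17.2% of all measured genes were higher, and against Imm TAM 9.05% were higher and 7.21% lower.

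Hardly any gene of neutrophil-like monocytes lay outside the range of the clusters around them. Of 10642 measured genes, 22 (0.207%) were at least 1.5-fold above the highest of the 7 clusters (Neutrophil-1, Neutrophil-2, Monocytes and Imm TAM-1 to Imm TAM-4), and 0 were as far below the lowest. For 7 of the 22, among them Cbr2, Retnla, Lyve1 and Vsig4, the 95% intervals of the ratios to all 7 clusters lay above 1. Each of the 7 clusters, set against the other 6, had more genes outside: 31 above and 50 below in Imm TAM-1, 258 and 183 in Monocytes, and 598 and 105 in Imm TAM-4. A sum over unlike cells lies towards the middle of a range whatever the cells are, so the counts describe the summed profile.

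The 22 genes above the range included genes known from resident macrophages and from T and NK cells. Cbr2, a carbonyl reductase found in resident macrophages, stood at 84.6 CPM, against 50.7 in Imm TAM-4, the highest of the 7. Retnla, a resistin-like protein of alternatively activated macrophages, stood at 36.0 CPM, against 7.01 in Neutrophil-1. Lyve1, a hyaluronan receptor of vessel-associated macrophages, stood at 7.75 CPM, against 2.22 in Imm TAM-2, and Vsig4, a complement receptor, at 9.33, against 1.39 in Neutrophil-2. Over all LLC clusters of at least 20 cells, 7 of the 22 genes were highest in TAM Lyve1, a cluster of 23 cells. Another 5 were highest in pDC, the 21 plasmacytoid dendritic cells, 4 in NK cells and 2 in naive T cells. In TAM Lyve1, Cbr2 stood at 1350.5 CPM, Lyve1 at 1225 and Retnla at 458. Cd7, Gzma and Trbc1, genes of T and NK cells, were among the 15 not highest in TAM Lyve1, at 3.02, 4.73 and 3.02 CPM in neutrophil-like monocytes. In these LLC clusters Cd7 was highest in pDC, at 746 CPM, as was Vsig4, at 89.2 CPM. With every LLC cluster of at least 50 cells as the range, Retnla was the gene left above it, and 0 genes lay below.

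A weighted sum of the 7 cluster profiles came close to the profile of neutrophil-like monocytes. Maximum likelihood gave the neutrophil clusters 23.8% of the UMIs (19.2% from Neutrophil-2 and 4.56% from Neutrophil-1). Imm TAM-4 received 40.8%, Monocytes 15.1%, Imm TAM-1 11.9%, Imm TAM-2 7.52% and Imm TAM-3 0.936%. Of 9653 genes with enough UMIs, 9327 (96.6%) lay within 1.5-fold of the fitted sum. The same fit of each of the 7 clusters on the other 6 placed between 53.6% (Neutrophil-2) and 84.6% (Imm TAM-1) of their genes within 1.5-fold, and 78.1% for Monocytes. Other clusters fitted on the 7 reached 80.0% (TAM-1), 74.3% (cDC2) and 39.1% (naive T cells). With Monocytes and Imm TAM but no neutrophil profile, 84.1% of the genes of neutrophil-like monocytes were within 1.5-fold. With the pooled neutrophils and Monocytes alone it was 80.2%, and with neutrophil profiles alone 27.5%. By rank correlation over 9501 genes, which are not independent replicates, the profile was nearest to Imm TAM-1 (Spearman rho 0.96), with 0.93 for Monocytes, 0.82 for Neutrophil-2 and 0.71 for naive T cells.

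**Figure D3:**
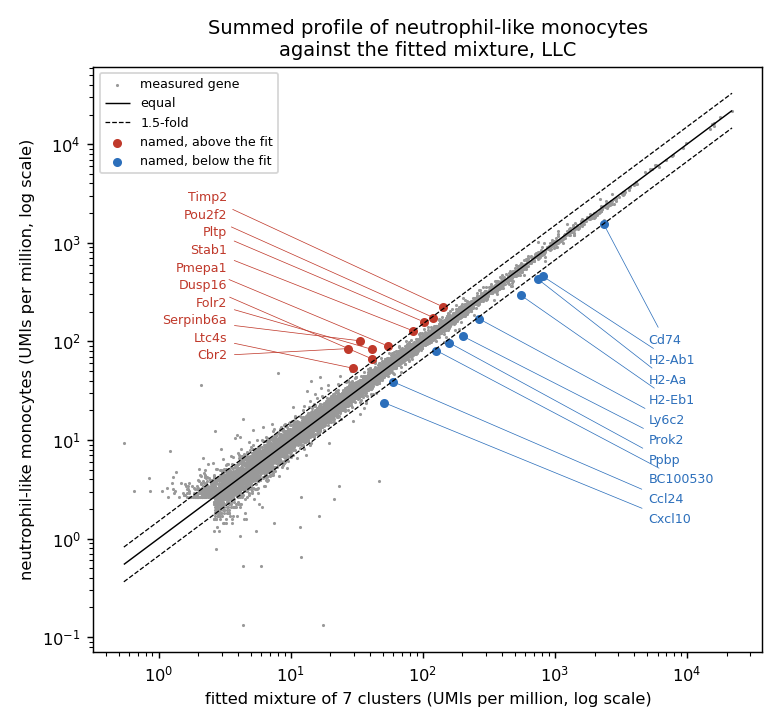
Level of each of 9653 genes in neutrophil-like monocytes of LLC (vertical) against the fitted mixture of 7 clusters (horizontal), both in CPM of summed UMIs on log axes. 96.6% of the genes lie between the dashed lines at 1.5-fold, and the named genes farthest above (red) and below (blue) the fit are labelled.

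The genes of the neutrophil core and of tumour neutrophils lay near the fitted sum, as nearly all genes did, and part of the granule genes lay under it. The neutrophil weight was fitted on these same genes, so their closeness to the fit was partly built in. Over all measured genes 96.6% were within 1.5-fold of the fit. All 22 genes of the neutrophil core and all 20 measured genes of tumour neutrophils were within 1.5-fold, with median ratios of 0.975 and 1.06. Of the neutrophil granule list 9 of 13 were within and 4 under it, with a median ratio of 0.807. S100a9 had 15455 observed and 16159.6 fitted CPM (ratio 0.956, 95% interval 0.951 to 0.962). G0s2 had 1568 observed and 1239 fitted CPM (ratio 1.27, 95% interval 1.24 to 1.29), and Hdc 334 observed and 268 fitted CPM (ratio 1.25, 95% interval 1.20 to 1.30). Arg1, at 86.4 CPM in neutrophils and 2465 in Imm TAM, had 1411 observed and 1524 fitted CPM (ratio 0.926, 95% interval 0.908 to 0.943).

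Genes farthest above the sum included some that are high in TAM-1 and TAM Lyve1. They were Cbr2 with 84.6 observed and 27.2 fitted CPM (ratio 3.11, 95% interval 2.87 to 3.36), Serpinb6a, a protease inhibitor, with 101 observed and 33.6 fitted CPM (ratio 3.02, 95% interval 2.81 to 3.24), and Folr2, a folate receptor of resident macrophages, with 83.2 observed and 41.2 fitted CPM (ratio 2.02, 95% interval 1.86 to 2.18). Serpinb6a, for example, stood at 596 CPM in TAM-1 and 625 in TAM Lyve1, neither of which was among the 7 profiles. Ltc4s, Pmepa1, Timp2, Pltp, Dusp16, Stab1 and Pou2f2 lay at 1.45 to 1.80 times the fit. Of the macrophage list, 19 of 20 genes were within 1.5-fold and 1 over the fit, with a median ratio of 1.14. When all LLC clusters of at least 50 cells were offered, TAM-1 took 11.5% and the share of genes within 1.5-fold became 97.4%. Of the non-classical monocyte list, 7 of 13 genes exceeded the 7-cluster fit, with a median ratio of 1.61. Eno3, a muscle-type enolase that marks these monocytes, had 31.4 observed and 13.2 fitted CPM (ratio 2.37, 95% interval 2.08 to 2.69), and Treml4 34.02 observed and 17.1 fitted CPM (ratio 1.99, 95% interval 1.76 to 2.25). Of the T and NK cell list 4 of 5 measured genes were over the fit, with a median ratio of 2.15.

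Some genes of antigen presentation and of the interferon response lay below the sum. Of the MHC class II list 4 of 9 measured genes were under it and the other 5 within 1.5-fold (median ratio 0.690), and of the interferon list 5 of 20 were under it and 15 within (median ratio 0.814). H2-Eb1 had 294 observed and 553 fitted CPM (ratio 0.532, 95% interval 0.510 to 0.554), and H2-Aa, H2-Ab1 and Cd74 lay between that ratio and 0.665. Cxcl10 had 23.9 observed and 51.1 fitted CPM (ratio 0.468, 95% interval 0.402 to 0.541). Prok2, which is concentrated in Neutrophil-2 (993 CPM, against 232 in Neutrophil-1), had 113 observed and 202 fitted CPM (ratio 0.556, 95% interval 0.520 to 0.595). Ly6c2 had 169 observed and 268 fitted CPM (ratio 0.632, 95% interval 0.598 to 0.668), and Ppbp, BC100530 and Ccl24 were also below. All 4 measured haemoglobin genes lay under the fit, with a median ratio of 0.0932.

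Genes that separate neutrophils from monocytes and immature macrophages showed how far each side was represented. The lower bound of the ratio of pooled neutrophils to pooled Monocytes and Imm TAM was at least 10 for 97 genes, and that of the inverse ratio for 64 genes. No count of neutrophil-like monocytes entered this choice directly. The clusters used for it were drawn from these same genes together with neutrophil-like monocytes, so the levels below are not independent of the clustering. The 97 neutrophil genes stood in neutrophil-like monocytes at a median of 24.8% of their CPM in neutrophils (10th to 90th percentile 17.2% to 31.9%). They stood at 1.99% in Monocytes, 1.54% in Imm TAM-4, 2.80% in naive T cells and 5.65% in B cells. In neutrophil-like monocytes the 64 monocyte and macrophage genes had a median of 76.6% of their CPM in Monocytes and Imm TAM (56.7% to 88.9%). The medians were 5.96% in Neutrophil-1, 6.56% in Neutrophil-2, 8.65% in naive T cells and 27.3% in B cells. Summed over the 64 genes, the levels were 73.0% in neutrophil-like monocytes, 57.8% in naive T cells and 94.6% in B cells. Some of the 64 genes are therefore not particular to monocytes and macrophages. Counted per cell, a neutrophil-like monocyte held a median of 377 UMIs of the 97 genes and a neutrophil 291, while Monocytes and Imm TAM held 16 and naive T cells 9. Of the 64 genes, a neutrophil-like monocyte held a median of 259 UMIs and a cell of Monocytes or Imm TAM 266. A neutrophil held 4 and a naive T cell 62. Gene by gene, the mean UMIs per cell in neutrophil-like monocytes were a median of 1.21 times those of neutrophils over the 97 genes and 0.983 times those of Monocytes and Imm TAM over the 64.

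Single cells varied widely in how much of the neutrophil profile they carried. Each cell was fitted as a sum of the pooled neutrophil profile and the pooled profile of Monocytes and Imm TAM. The neutrophil part had a median of 21.98% of the UMIs of a neutrophil-like monocyte (10th to 90th percentile 7.72% to 46.7%), against 99.9% of a neutrophil and 0% of a cell of Monocytes or Imm TAM, whose 90th percentile was 7.95%. It was under 5% in 31 of the 890 cells and over 50% in 69. Imm TAM-2 overlapped the range, with a median of 5.11% and a 90th percentile of 24.3%, whereas in Imm TAM-4 the highest cell reached 18.2%. In UMIs, the neutrophil part of a neutrophil-like monocyte had a median of 1622 and the neutrophil part of a neutrophil 1433. The remaining part had a median of 5723 UMIs, against 5889 in Monocytes and Imm TAM. Across the 890 cells the UMIs of the 2 parts had a Spearman correlation of -0.10, a description over cells of 1 library whose parts come from the same fit.

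**Figure D4:**
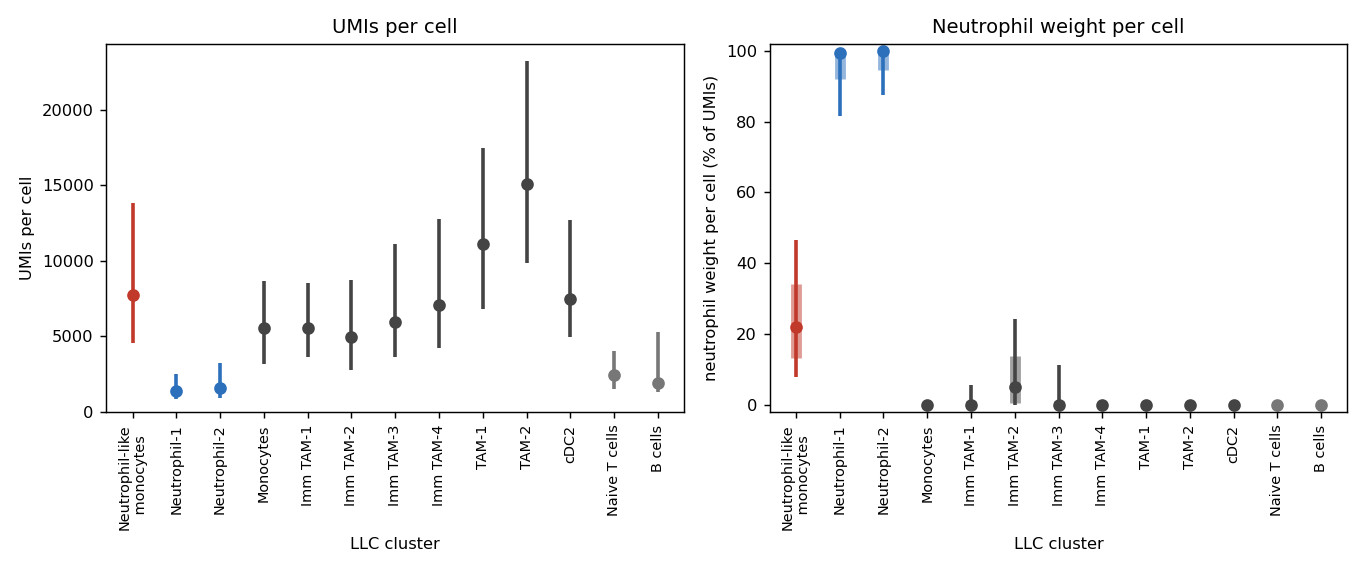
UMIs per cell (left) and neutrophil weight per cell (right) in LLC clusters. Points are medians over cells, thin bars run from the 10th to the 90th percentile, and thick bars on the right from the 25th to the 75th. Neutrophil-like monocytes have a median weight of 21.98% at a median depth of 7754 UMIs.

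The other part of the profile resembled several clusters. When each neutrophil-like monocyte was fitted as neutrophil plus 1 other LLC cluster, the best cluster was Imm TAM-4 for 226 cells (25.4%), Imm TAM-1 for 189 (21.2%), Monocytes for 185 (20.8%), TAM-1 for 121 (13.6%) and Imm TAM-2 for 110 (12.4%). Those clusters themselves made up 26.8%, 15.2%, 9.996%, 16.2% and 11.5% of the 9984 cells in the 13 clusters offered as partners, which left out the neutrophil clusters, neutrophil-like monocytes and clusters under 50 cells. Of all 10176 LLC cells outside the neutrophil clusters and neutrophil-like monocytes they made up 26.3%, 14.96%, 9.81%, 15.9% and 11.3%. Monocytes and Imm TAM-1 had larger shares as partners than by either count of cells. For TAM-1 the partner share's interval (11.4% to 16.02%) covered only the second of the 2 shares. The cell counts behind the intervals come from 1 library. Imm TAM-3 was best for 29 cells, cDC2 for 20, TAM-2 for 5, NK cells and naive T cells for 2 each and Prolif TAM for 1. B cells and migDC were best for 0 of 890, which allows a share of up to 0.414% for each by the exact interval. Partner shares of other clusters fell below their cell shares. TAM-2 had 0.562% as partner against 4.46% of the 9984 cells, Prolif TAM 0.112% against 3.32%, and naive T cells 0.225% against 1.85%. NK cells had 0.225% against 1.31%, and B cells and migDC made up 1.02% and 0.881% of the cells. Each of these cell shares lay above the interval of the partner share.

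The groups of neutrophil-like monocytes drawn by partner kept the genes of that partner, which helped to draw the groups. C1qa, a chain of complement C1q, stood at 3791 CPM in neutrophil-like monocytes fitted best by TAM-1 (5351 in TAM-1 itself). It stood at 897 in those of Imm TAM-4 (1783), 95.01 in those of Monocytes (70.2) and 59.1 in those of Imm TAM-1 (99.8). Plac8 ran the other way, at 4134 CPM in the group of Monocytes (5392 in that cluster) and 187 in the group of TAM-1 (139.8). S100a9 stood between 12491 and 18674 CPM and G0s2 between 1357 and 1734 CPM over the 5 groups. Csf3r, the G-CSF receptor, stood between 178 CPM in the group of TAM-1 and 352 in that of Monocytes, and Hdc between 258 in the group of TAM-1 and 413 in that of Imm TAM-2. Ly6c2 in the group of Monocytes was 313 CPM, against 928 in Monocytes, and H2-Aa in the group of TAM-1 was 34.3, against 148 in TAM-1.

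**Figure D5:**
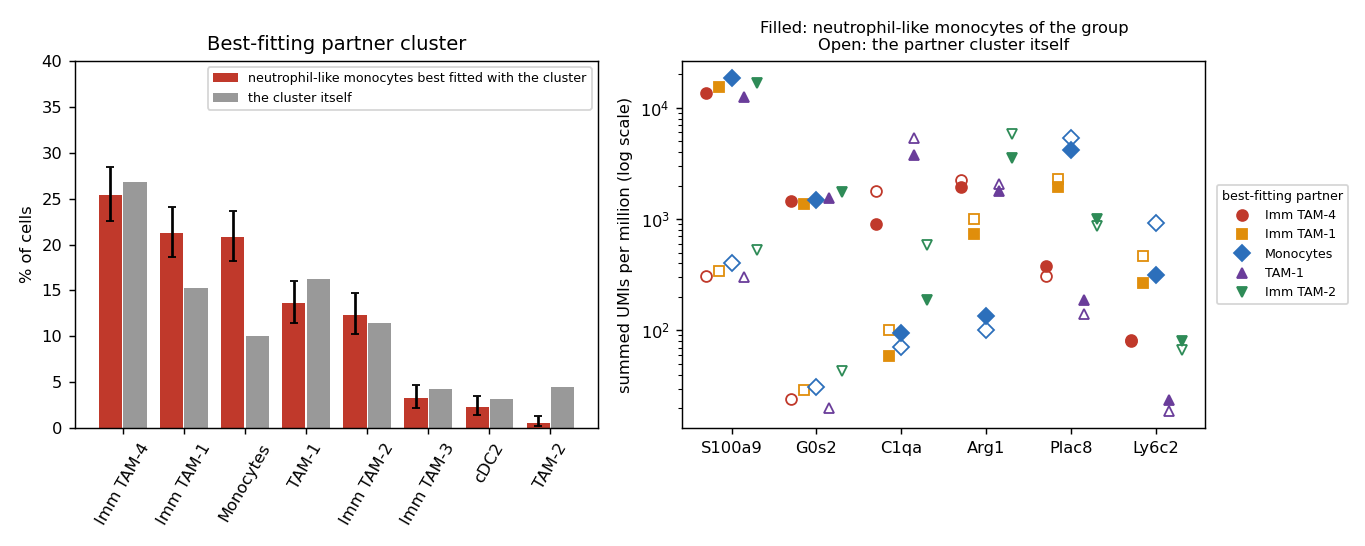
Left, share of neutrophil-like monocytes fitted best by each partner cluster (red, exact 95% intervals over cells) beside the share of that cluster among the 9984 LLC cells of the 13 clusters offered as partners (grey), for the 8 most frequent partners. Right, levels of 6 genes in CPM of summed UMIs on a log axis, in neutrophil-like monocytes of the 5 largest groups (filled) and in the partner cluster itself (open). S100a9 stands at 12491 to 18674 CPM and G0s2 at 1357 to 1734 CPM over the 5 groups, and C1qa at 59.1 to 3791 CPM.

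A neutrophil part was not limited to cells of this name. With each cell set against the profile of its own cluster, or of its partner, 1041 LLC cells outside the neutrophil clusters had a neutrophil weight of at least 10%, and 793 of them (76.2%) were neutrophil-like monocytes. A cluster's own profile already holds the neutrophil RNA of its cells, and neutrophil-like monocytes were not set against their own profile. The share of 76.2% is therefore not a like comparison. In Imm TAM-2, 54 of 1148 cells reached 10% this way, but against the pooled Monocytes and Imm TAM its 75th percentile was 13.7%. Counting neutrophil-like monocytes with their partners, cells with a weight of at least 10% made up 16.4% of 1183 Monocytes, 11.1% of 1711 cells for Imm TAM-1 and 7.89% of 2901 for Imm TAM-4. They were 6.72% for TAM-1, 8.98% for cDC2, 8.82% (interval 4.11% to 16.1%) of B cells, 9.77% of NK cells and 3.21% (1.19% to 6.85%) of naive T cells. Of the 121 neutrophil-like monocytes with TAM-1 as partner 106 reached 10%, against 11 of the 1619 cells named TAM-1. Of the 226 with Imm TAM-4 as partner 199 did, against 30 of the 2675 cells named Imm TAM-4. The part of free RNA in these weights was not tested.

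Doublet scores were high in this cluster. No barcode was removed as a doublet, and the scores served to rank cells. Of the 890 neutrophil-like monocytes, 352 (39.6%) were among the 6% of LLC cells with the highest scores, 45.1% of all such cells. The share was 0.802% in Monocytes, 2.69% in Imm TAM-1, 3.21% in Imm TAM-4, 0.123% in Neutrophil-1 and 40.4% of the 47 cells of Tregs-2. The 352 cells with high scores had a median neutrophil weight of 16.6% and 8371 UMIs, and the other 538 a weight of 26.9% and 7243 UMIs. In UMIs their neutrophil parts had medians of 1458 and 1768. The share with a high score ran from 15.7% in the cells fitted best by Monocytes to 63.6% in those fitted best by TAM-1. Without the cells of high scores in any cluster, the mixture gave the neutrophil profiles 27.6% of the UMIs, 11 genes above the range of the 7 clusters and 9 below it. Whether a barcode held 1 cell with both profiles or 2 cells cannot be told apart in these counts. In a table of monocytes and macrophages that the authors also deposited, 12 of the 890 barcodes had a name, against 977 of the 998 Monocytes and 2560 of the 2675 Imm TAM-4 cells. Of the 12, 7 were named Mono/TAM Hypoxic.

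The name was more frequent in LLC than in B16. Neutrophil-like monocytes were 6.84% of LLC cells (exact 95% interval 6.41% to 7.28%) and 0.451% of B16 cells (0.307% to 0.640%). Neutrophils were 15.01% of LLC cells and 4.35% of B16 cells. Of myeloid cells alone, neutrophil-like monocytes were 7.12% in LLC and 0.851% in B16. Of the 31 B16 cells, an annotation of the B16 library alone named 20 Neu-like Mono, 10 Neu and 1 Mono. Of the 28 cells it named Neu-like Mono, 7 were Monocytes and 1 was Imm TAM-3 in the joint table. The 3 marker genes were close in level: S100a9 stood at 15455 CPM in LLC and 10697 in B16, G0s2 at 1568 and 1275, and Hdc at 334 and 319. The B16 profile was fitted by 31.7% neutrophil and 68.1% Monocytes of B16, with 82.9% of 1688 genes within 1.5-fold, 211 over and 77 under. The non-neutrophil weight thus went to Monocytes in B16 and mostly to Imm TAM in LLC. Such weights name only the nearest of the profiles offered. Gdf15, for example, stood at 178 CPM in neutrophil-like monocytes of B16, against 5.42 in Monocytes, 26.7 in neutrophils and 17.2 in Imm TAM of B16.

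Many genes differed between the neutrophil-like monocytes of the tumours. Of 9466 measured genes, 2613 (27.6%) were higher and 2515 (26.6%) lower in LLC, and the B16 side rests on 191367 UMIs of 31 cells. Arg1 stood at 1411 CPM in LLC and had 0 UMIs in B16, at least 90.01-fold higher by a floor of 3 UMIs over the B16 cells. Pf4, a platelet-type chemokine that macrophages also make, stood at 1191 and 15.7 CPM, and Dab2, an endocytic adaptor, at 481 and 5.23. Ecm1 and Emp1 had 0 UMIs in B16 and stood at 223 and 213 CPM in LLC. Serpina3g stood at 0.920 CPM in LLC and 136 in B16, Fabp4, a fatty acid binding protein, at 12.5 and 219, and Gdf15, Sh2d1b1 and Ceacam1 were lower in LLC by 12.3-fold to 59.7-fold. Of the non-classical monocyte list 13 of 13 genes were lower in LLC, and of interferon response genes 15 of 19. Of the macrophage list 14 of 20 and of hypoxia genes 12 of 20 were higher in LLC, while the neutrophil core had 12 of 22 within 1.5-fold. Some of these differed between the tumours in other clusters too. Ace, an enzyme of non-classical monocytes, stood at 49.9 and 272 CPM in neutrophil-like monocytes of LLC and B16, and at 148 CPM in Monocytes of LLC and 328 in those of B16, and Arg1 in Imm TAM at 2465 and 1334 CPM. Tumour line, mouse strain and library cannot be told apart here.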

How the data were processed

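UMI counts per gene and cell of 13071 genes were used as deposited by the authors, with the library and cluster name that the authors gave each cell. The submitters' processing notes name Cell Ranger and mm10. For the Cell Ranger version, sorting, filters on cells, removal of doublets and clustering, the sources used here give no detail. Counts were summed per cluster and library and scaled to CPM. Ratios have exact conditional binomial 95% intervals, and a side with 0 UMIs was entered at a floor of 3. Genes with 20 or more UMIs in the 2 sides together counted as measured and were called at 1.5-fold. Mixtures were fitted by expectation-maximization of the multinomial likelihood, with 0.5 UMI added per gene to the profiles. Doublet scores came from Scrublet in scanpy 1.11.5. Other steps used Python 3.11.15, numpy 2.4.6, scipy 1.17.1 and pandas 2.3.3, and were tested on simulated data.

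The named genes are G0s2, S100a9 and Hdc and, in each comparison, the 10 highest and 10 lowest genes (5 and 5 between tumours) by the interval bound nearest to 1, with at least 50 CPM in the higher side. Mitochondrial, ribosomal, Gm, Rik, receptor segment, sex-linked and haemoglobin genes were left out of this rule. Genes of lists, of the range of the 7 clusters and of the partner groups were named as examples after their values were seen, and 1 gene that the rule names is not reported here. The cells and gene lists were chosen with earlier results of these data known. No samples were replicates, and the alternatives tried were other filters, thresholds, scalings and cluster choices.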

Additional observations from a re-analysis of the deposited data

Results flagged for a closer look

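Fibronectin, Fn1, is a matrix protein made by maturing macrophages. Its difference between neutrophil-like monocytes and Monocytes had opposite directions in the 2 tumours. In LLC it stood at 1934 CPM in neutrophil-like monocytes, against 1001 in Monocytes, a ratio of 1.93. In B16 it stood at 131 CPM in neutrophil-like monocytes, against 429.7 in Monocytes, a ratio of 0.304. Each tumour had 1 library, so the difference between the tumours was not tested. The pooled Imm TAM clusters stood at 2508 CPM in LLC and 527 in B16, and the neutrophils at 155 and 15.3.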

How the results depend on the processing

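No paired analysis was possible because each tumour had 1 library and the labels carry no replicate numbers. Counts of called genes depended on the threshold. With at least 100 UMIs, 3710 genes were higher than in Neutrophils, 1009 higher than in Monocytes, 487 lower than in Imm TAM and 6 above the range of the 7 clusters, and 1366 were higher and 1469 lower in LLC than in B16. A call at 2-fold gave 771 genes lower than in Neutrophils, 1002 higher and 367 lower than in Monocytes, 529 higher and 265 lower than in Imm TAM and 9 above the range. A call on the interval bound gave 820, 884, 365, 548, 100 and 4 in the same order. Scaling by the median gene gave 3645 genes higher and 3426 lower than in Neutrophils, 13 above and 4 below the range. It turned the median of the S100 family against Neutrophils to -0.17, and raised the gene lists with a lower median there to 15. This scaling of lists was chosen after seeing the data. The mean of per-cell CPM gave 13 genes above and 1 below the range.

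Without the cells of high doublet scores, 1621 genes were lower than in Imm TAM, 11 lay above and 9 below the range, the neutrophil part was 27.6% of the mixture and 26.9% of the median cell, and neutrophil-like monocytes were 4.395% of LLC cells. Against single Imm TAM clusters, 1794, 2325 and 1586 genes were higher than in Imm TAM-1, Imm TAM-2 and Imm TAM-3, and 453 and 1843 lower than in Imm TAM-1 and Imm TAM-4. The neutrophil part of the mixture was 32.5% by least squares on square roots, 23.7% with all clusters offered and 28.2% with Neutrophils and Monocytes alone, and 27.3% of the median cell with Monocytes alone. The causes were not tested. Under the other alternatives 53 main values stayed within 1.5 times or within their interval, and of the single genes and lists 152 stayed and 97 moved. A change of direction was recorded only for reported values past 1.5-fold, so some of the 97 can have changed sign. The B16 side rests on 31 cells.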

Other observations

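Transcription factors of both lineages were present in the neutrophil-like monocytes of LLC. Cebpb, a factor of inflammatory granulocytes and macrophages, stood at 3243 CPM in neutrophil-like monocytes, against 6645 in neutrophils, 2593 in Monocytes and 2082 in Imm TAM. Klf4, a factor that monocytes need, stood at 122 CPM in neutrophil-like monocytes, against 10.2 in neutrophils, 141 in Monocytes and 118 in Imm TAM. Irf8 stood at 136 CPM in neutrophil-like monocytes, against 8.14 in neutrophils, 136 in Monocytes and 171 in Imm TAM. Of the monocyte and macrophage factors 7 of 11 were higher and 1 lower than in neutrophils, where 59.8% of all measured genes were higher, and 2 of 12 higher and 1 lower than in Imm TAM. Of the neutrophil factors 6 of 10 were lower than in neutrophils (13.3% of all measured genes were), and 6 of 10 higher than in Imm TAM. Over all measured genes, 9.05% were higher and 7.21% lower than in Imm TAM.

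Several cytokine and chemokine transcripts, given here as examples, stood between their levels in neutrophils and in Imm TAM. Il1b, a cytokine of the first inflammatory response, stood at 2801 CPM in neutrophil-like monocytes, against 8127 in neutrophils, 1067 in Monocytes and 809.7 in Imm TAM. Cxcl2, which draws neutrophils, stood at 10373 CPM in neutrophil-like monocytes, against 32294 in neutrophils, 353 in Monocytes and 1689.6 in Imm TAM, and Ccl3 at 1182 CPM in neutrophil-like monocytes, against 3346 in neutrophils, 49.0 in Monocytes and 131 in Imm TAM. Ccl2, which draws monocytes, had its high level on the other side, with 768 CPM in neutrophil-like monocytes, against 99.8 in neutrophils, 214 in Monocytes and 1091 in Imm TAM. Of the inflammatory ligands 9 of 24 were higher and 12 lower than in neutrophils, where 59.8% and 13.3% of all measured genes were. Against Imm TAM 10 of 26 were higher and 10 lower, where 9.05% and 7.21% of all measured genes were. Cd274, the checkpoint ligand PD-L1, stood at 161 CPM in neutrophil-like monocytes, against 345 in neutrophils, 29.9 in Monocytes and 63.2 in Imm TAM. Ptgs2, the enzyme that starts prostaglandin synthesis, stood at 511 CPM in neutrophil-like monocytes, against 1609.7 in neutrophils, 52.3 in Monocytes and 170.2 in Imm TAM.

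Of the nuclear genes of oxidative phosphorylation, 16 of 16 were higher than in neutrophils (59.8% of all measured genes were), 6 of 16 lower than in Monocytes (11.6% of all were), and 0 higher and 0 lower than in Imm TAM. The list's median log2 ratio to neutrophils was 1.55, against 0.98 over all measured genes, and 0.59 when scaled by the median gene. Ndufa4, a subunit of the respiratory chain, stood at 251 CPM in neutrophil-like monocytes, against 66.3 in neutrophils, 466 in Monocytes and 258 in Imm TAM. Of the genes of NF-kappaB feedback and survival 9 of 17 were lower than in neutrophils (13.3% of all measured genes were). In the same list 8 were higher than in Monocytes (17.2% of all were) and 10 higher than in Imm TAM (9.05% of all were). Nfkbia, which holds NF-kappaB in the cytoplasm, stood at 783 CPM in neutrophil-like monocytes, against 1831 in neutrophils, 259 in Monocytes and 378 in Imm TAM.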
